A study of Mus musculus with 2 samples.

Results

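T cells with little RNA were examined in single-cell RNA sequencing of J558 allografts, among barcodes that fall below the limit of 2000 detected genes used by the study. They were chosen by their measured values: over 500 and up to 2000 genes, under 15% of UMIs (unique molecular identifiers, each marking 1 captured transcript) in mitochondrial genes, at least 1 UMI of Cd3d, Cd3e or Cd3g, at least 1 UMI of Trac, Trbc1 or Trbc2, fewer than 5 UMIs of Lyz2, none of Csf1r, Klrb1c or Ncr1, and at most 1 of Trap1a. The rule found 386 of 11123 barcodes, 43 of 4565 in the vehicle library and 343 of 6558 in the TAK-931 library, here called low-gene T barcodes. T barcodes that met the same rule with over 2000 genes (14 and 608) are called high-gene T barcodes. J558 is a mouse plasmacytoma line, and the tumours grew under the skin of female BALB/c mice that received oral 0.5% methylcellulose (vehicle) or TAK-931, an inhibitor of the replication kinase CDC7, at 60 mg/kg once daily for 6 days. Each group is 1 library from 1 allograft, picked by the study as representative, so no spread between mice could be measured. All intervals are 95% intervals that cover counting error only, and no p-value is given.

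A naive or resting T cell is small, divides rarely and makes little RNA. It is held in that state by transcription factors such as KLF2, TCF7 and FOXO1, which maintain the receptors for homing, tissue exit and interleukin 7, and by antiproliferative factors of the BTG and TOB family. On stimulation through its antigen receptor the cell grows, enters division and switches on costimulatory, effector and checkpoint genes, and cells that return to rest as memory cells may keep effector transcripts.

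In the TAK-931 library 1147 barcodes lay in the window of over 500 and up to 2000 genes, and the Cd3 step left 400, the T cell receptor step 360, the myeloid and natural killer (NK) steps 343. In the vehicle library the same steps led from 722 barcodes over 51 and 46 to 43. Low-gene T barcodes were 29.9% (27.3 to 32.6) of the window in the TAK-931 library and 5.96% (4.34 to 7.94) in the vehicle library, a difference of 23.9 percentage points (20.7 to 27.1). Part of the vehicle window held plasmacytoma counts. Among window barcodes with at most 1 UMI of the tumour antigen gene Trap1a the shares were 31.0% of 1105 and 9.49% of 453, and the difference was 21.5 points (17.5 to 25.2). Within the T barcodes the order was the other way, since 36.1% (33.0 to 39.2) of the TAK-931 T barcodes over 500 genes were low-gene and 75.4% (62.2 to 85.9) of the 57 vehicle ones. The limit on genes therefore removed 343 of 951 T barcodes in the TAK-931 library and 43 of 57 in the vehicle library.

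The low-gene T barcodes of the TAK-931 library held 1475752 UMIs in all, with a median of 4260 per barcode (1024 to 9845) and 1513 genes. The high-gene T barcodes held 11005309, with a median of 13601 per barcode (5504 to 106902) and 3187 genes. Both are set by the limit on genes. When every barcode was reduced at random to 1000 UMIs (thinned), the median was 551 genes in low-gene and 569 in high-gene T barcodes, which lie close together. The median share of mitochondrial UMIs was 5.96% in low-gene and 4.92% in high-gene T barcodes, and ribosomal protein genes took 27.2% and 28.4% of the summed UMIs. Malat1, a long noncoding RNA that stays in the nucleus, stood at 19449 counts scaled to 1000000 UMIs (CPM) in low-gene and 7692 CPM in high-gene T barcodes, and at 19811 and 7151 CPM in the vehicle library. Its part in the results that follow was not tested, but each main ratio was also taken among barcodes with under 2% Malat1. The libraries shared 8 barcode strings, and 0 of them belonged to a low-gene T barcode.

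**Figure D1:**
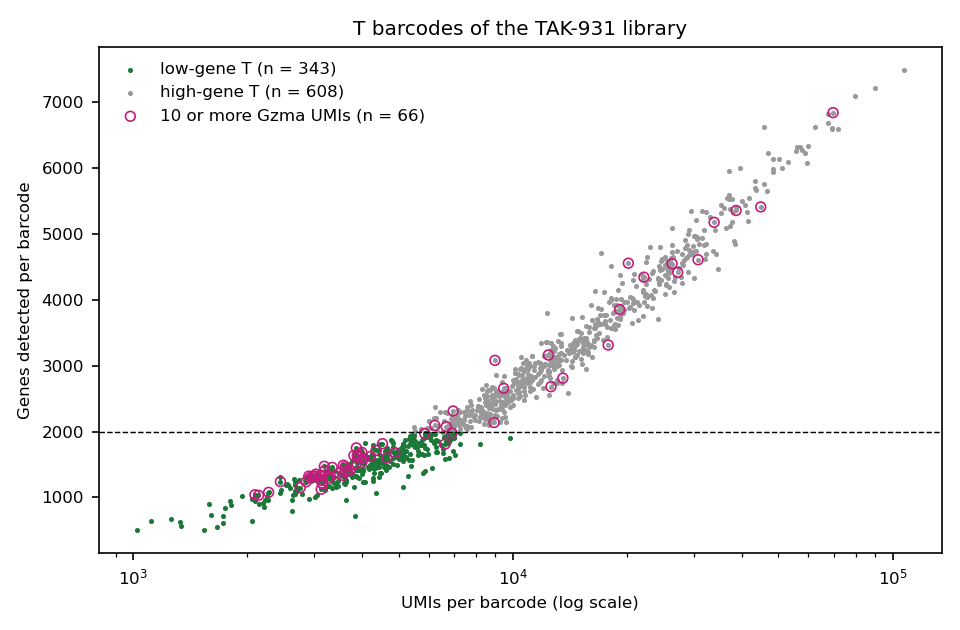
Each point is 1 T barcode of the TAK-931 library, with its UMIs on a log scale on the x axis and its detected genes on the y axis, low-gene T barcodes (343) in green and high-gene ones (608) in grey. Rings mark the 66 barcodes with 10 or more Gzma UMIs, of which 46 lie under the dashed limit of 2000 genes.

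The label of T cells was checked against genes outside the rule. Of 18 genes of the T cell receptor complex, its signalling chain and the T lineage (Cd2, Cd5, Cd247, Lck, Lat, Cd28, Bcl11b and others), 18 were measured well enough to compare in the TAK-931 library. Of these 0 differed by 2-fold or more between low-gene and high-gene T barcodes, with a median log2 ratio of 0.14. The list also holds genes of wider use, such as Ptprc, which encodes CD45 of hematopoietic cells. Both sets met the same rule, so like levels do not by themselves set them apart from other lymphocytes. In the vehicle library, with fewer UMIs, 4 of 18 were at least 2-fold higher and 2 at least 2-fold lower in low-gene T barcodes (median 0.16). In the TAK-931 library Cd28, the costimulatory receptor, had 362 CPM in low-gene and 251 CPM in high-gene T barcodes, Lck, the kinase of the receptor complex, 244 and 294 CPM, and Bcl11b, a factor of T lineage commitment, 222 and 155 CPM. Cd28 was detected in 62.7% of low-gene T barcodes, and after thinning in 26.2%, against 0.357% of 280 thinned barcodes of the same window with macrophage or tumour counts (median 3395 UMIs). In 69 NK barcodes of the window (Klrb1c or Ncr1 and no Cd3 gene), Cd28 was detected in 26.1% without thinning. Of the rule's own genes, Cd3e was detected in 92.4% of low-gene T barcodes, Trac in 73.5% and Trbc2 in 89.8%, which the rule sets in part. Tcf7, the remaining given marker, was detected in 30.9% of the low-gene and 16.9% of the high-gene T barcodes of the TAK-931 library. After thinning it was detected in 10.8% and 2.80%, and in 0.714% of the macrophage and tumour barcodes.

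Composition was compared by summing UMIs over each set of barcodes and scaling to CPM. A gene was compared when 10 or more UMIs were expected in each sum from their pooled level, and a ratio of 2 or more (log2 of 1) is the size named here. In the TAK-931 library 8041 genes were compared, of which 327 (4.07%) were at least 2-fold higher and 1165 (14.5%) at least 2-fold lower in low-gene T barcodes, and the median log2 ratio of all was −0.15. The ratios below are not corrected for that shift, and list medians are read beside it. The sets were split by detected genes in these same barcodes, so all ratios are descriptions.

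Resting genes were higher as a group in low-gene T barcodes. Of 16 listed genes 14 could be compared, 7 were at least 2-fold higher and 1 at least 2-fold lower, and the median log2 ratio was 1.03. Klf2, the factor that keeps T cells quiescent and drives S1pr1, had 529.9 CPM (493 to 568) in low-gene and 101 CPM (94.7 to 107) in high-gene T barcodes, a log2 ratio of 2.40 (2.26 to 2.53). S1pr1, the receptor through which T cells leave tissues, had 276 and 46.2 CPM (log2 2.58, 2.39 to 2.77). Il7r, the receptor for the survival cytokine interleukin 7, had 384 and 65.7 CPM (2.55, 2.38 to 2.71).

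Klf3, a repressor of the same factor family, stood at 152 and 18.0 CPM, the largest ratio of the list at 3.08. Tcf7, the factor of naive and memory-like T cells, stood at 109 and 27.4 CPM (2.00), and Bach2 and Foxp1, repressors of effector differentiation, had log2 ratios of 1.66 and 1.15. Other genes of naive cells differed less. Ccr7, the lymph node homing receptor, had 107 and 86.1 CPM (0.31), with a sign that turned under 3 alternatives. Lef1, a factor related to Tcf7, had 102 and 60.6 CPM (0.75). Dapl1, a gene of naive CD8 T cells, was the member that was at least 2-fold lower, on 6 UMIs in the low-gene sum (log2 −1.04, with an interval that crossed 0).

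Antiproliferative and quiescence genes stood higher too. Of 10 genes, 10 had a ratio above 1 and 7 were at least 2-fold higher (median log2 1.19). Btg1 and Btg2, which slow proliferation through mRNA decay, had 2118 against 707 CPM (log2 1.58, 1.52 to 1.64) and 424 against 118 CPM (1.85). Tob1, of the same family, had 92.8 against 26.1 CPM, and Tsc22d3, the glucocorticoid-induced leucine zipper, 115 against 35.0 CPM. Cdkn1b, the cell cycle inhibitor p27, had 203 against 111 CPM (0.87).

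The size of these medians depended on which high-gene T barcodes they were set against. Against the 229 high-gene T barcodes with no UMI of the proliferation genes Mki67 or Top2a, the median was 0.40 for resting genes (4 of 15 at least 2-fold higher, 3 lower) and 0.64 for quiescence genes (3 of 10 higher), where 2.56% of 7813 genes compared were higher and 7.63% lower. Against the 256 with up to 3000 genes it was 0.52 and 0.62. Klf2, S1pr1 and Il7r kept log2 ratios of 1.90, 2.20 and 1.93 in the comparison without Mki67 or Top2a, while Tcf7 came to 0.87. Among barcodes with under 2% Malat1 (172 low-gene and 553 high-gene), the medians were 1.07 and 1.34, and Klf2, S1pr1 and Il7r had 2.30, 2.56 and 2.69.

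**Figure D2:**
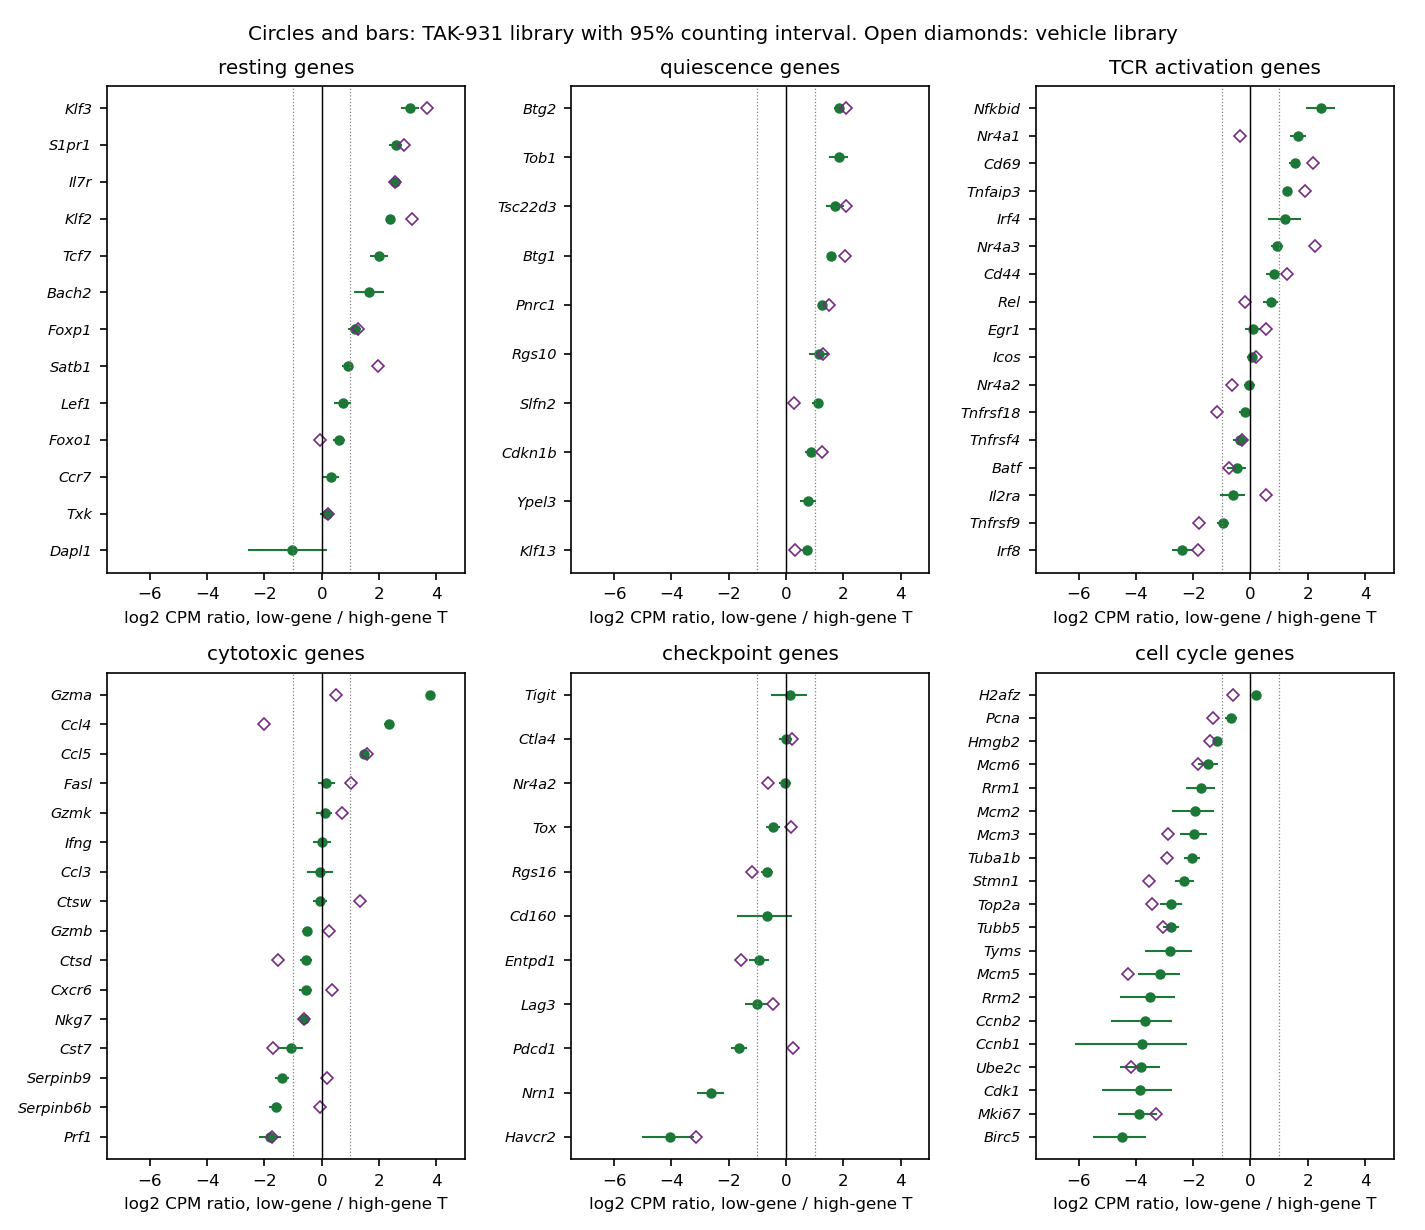
Log2 ratios of CPM, low-gene over high-gene T barcodes, for genes of 6 lists that could be compared in the TAK-931 library, with circles and bars for that library with its 95% counting interval and open diamonds for the vehicle library where the gene could be compared there. Dotted lines mark a ratio of 2 in either direction. Resting and quiescence genes lie mostly to the right and cell cycle genes to the left, and the activation and cytotoxic lists spread to both sides.

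Genes of recent T cell receptor signalling gave a median that depended on the barcodes compared. Of 17 genes compared, 5 were at least 2-fold higher and 1 at least 2-fold lower, with a median log2 ratio of 0.10. The median was 0.70 with 2 UMIs required of each marker group, 0.64 without barcodes that held Trdc or NK UMIs (6 of 17 higher, 1 lower), 0.49 within CD8 and −0.49 within CD4 barcodes. Cd69, an early activation and tissue retention marker, had 286 against 98.2 CPM (1.54), Nr4a1, an immediate target of the receptor, 138 against 43.5 CPM (1.67), and Tnfaip3, which restrains NF-κB signalling, 674 against 281 CPM (1.26). Nfkbid and Irf4 were the other 2 that stood higher, at 44.7 against 8.18 CPM and 27.1 against 11.7 CPM.

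Some receptor genes of the activation list lay near or below the high-gene level. Tnfrsf9, which encodes 4-1BB, had 194 CPM in low-gene and 379 CPM in high-gene T barcodes (−0.96), Icos 332 and 316 CPM, Tnfrsf4 133 and 170 CPM, and Il2ra, the high-affinity interleukin 2 receptor chain, 38.6 and 59.0 CPM. Irf8, a factor of effector CD8 T cells and of myeloid cells, was the member that stood lower, at 57.6 and 301 CPM. Early response genes that tissue dissociation also induces were part of the same picture. Of 15 such genes 4 were at least 2-fold higher (Ier2, Atf3, Junb and Zfp36) and 2 at least 2-fold lower (Hspa1a and Hspa1b), with Junb at 1028 and 446 CPM, Ier2 at 272 and 82.8 CPM, Fos at 102 and 82.7 CPM and Jun at 65.1 and 75.6 CPM. The part of dissociation in the ratios of Cd69 and Nr4a1 was not tested.

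Checkpoint genes were lower as a group, with 0 of 11 at least 2-fold higher, 4 at least 2-fold lower and a median log2 ratio of −0.68. Pdcd1, which encodes PD-1, had 90.8 CPM (76.1 to 108) in low-gene and 284 CPM (274 to 294) in high-gene T barcodes (log2 −1.64, −1.90 to −1.39). Havcr2, which encodes TIM-3, had 8.13 and 134 CPM (−4.04), Nrn1 31.2 and 192 CPM, and Lag3, an inhibitory receptor for MHC class II, 46.8 and 94.2 CPM (−1.01). Ctla4 did not differ beyond counting error, at 205 and 208 CPM (−0.02, −0.20 to 0.16), and Tox, a factor of exhausted T cells, had 135 and 186 CPM. The lower level of Pdcd1 and Havcr2 was also present against high-gene T barcodes without Mki67 or Top2a, with log2 ratios of −1.39 and −3.53.

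Cytotoxic and chemokine genes split. Of 16 genes 3 were at least 2-fold higher and 4 at least 2-fold lower. The median log2 ratio was −0.29, whereas the summed CPM of the list was higher (16590 against 8516) and Ccl5 held most of it. Ccl5, a chemokine of memory and effector CD8 T cells, had 12491 and 4508 CPM (1.47, 1.45 to 1.49). Ccl4 had 439.8 and 86.1 CPM, and Gzma, which encodes the serine protease granzyme A, 1271 and 92.3 CPM (3.78, 3.67 to 3.90). Gzmb, which encodes granzyme B, was on the other side at 421 and 601 CPM (−0.51), with a sign that turned without barcodes that held Trdc or NK UMIs (0.053) and against high-gene T barcodes of up to 3000 genes (0.032). Also lower were the pore-forming protein gene Prf1 at 50.8 and 176 CPM (−1.79), Serpinb9, an inhibitor of granzyme B, at 121 and 313 CPM, and Serpinb6b at 158 and 479 CPM. Ifng was at 80.6 and 79.2 CPM.

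Gzma was carried by few barcodes. Of the 343 low-gene T barcodes of the TAK-931 library 255 had no Gzma UMI, 42 had 1 to 9 and 46 (13.4%) had 10 or more, and those 46 held 93.0% of its UMIs. In high-gene T barcodes 20 of 608 (3.29%) had 10 or more. In the 46 barcodes Ccl5 stood at 25606 CPM, Ccl4 at 2008 CPM and Gzmb at 1990 CPM, against 9780, 155 and 157 CPM in the 255 without Gzma.

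These 46 were set beside NK barcodes, since NK cells are rich in granzyme A. In the same window 69 barcodes had Klrb1c or Ncr1 and no Cd3 gene, and 55 of them had 10 or more Gzma UMIs. Tyrobp and Fcer1g, the signalling adaptors of NK cells, were at 126 and 168 CPM in the 46 and at 2006 and 1533 CPM in the NK barcodes. The NK receptor gene Klre1 was at 102 CPM (59.5 to 164) in the 46, 223 CPM (171 to 285) in the NK barcodes and 11.4 CPM in the 255. Klra7, another such gene, was at 96.2, 212 and 4.37 CPM, with UMIs in 2 of the 46. Ccl5, Ccl4 and Gzmb were at 24334, 2388 and 3066 CPM in the NK barcodes. Trac was at 643 CPM in the 46, which the rule sets in part. Cd28, outside the rule, was at 150.3 CPM (97.2 to 222) in the 46, 397 CPM in the 255 and 106 CPM (71.5 to 151) in the NK barcodes, so it does not set the 46 apart from the NK barcodes beyond counting error. Cd6, another T lineage gene outside the rule, did: it had the same level as Cd28 in the 46 (150.3 CPM, in 12 barcodes) and no UMI in the NK barcodes, where the interval reaches 13.0 CPM.

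Genes of cell division were lower, 18 of 20 being at least 2-fold lower and 0 higher (median log2 −2.77). Mki67 had 14.9 and 224 CPM (−3.91, −4.58 to −3.31), Top2a, the topoisomerase of dividing cells, 50.1 and 339 CPM, and Birc5, a mitotic regulator, 8.13 and 183 CPM. Mki67 was detected in 4.66% of low-gene T barcodes, and after thinning in 2.04% of them and 11.7% of high-gene ones, with 0.714% in the macrophage and tumour barcodes. Pcna, which is also used in DNA repair, had 229.7 and 368 CPM, and the histone gene H2afz 1575 and 1392 CPM. Against high-gene T barcodes without Mki67 or Top2a, which are 2 of the list's own genes, the median of the list was 0.17. All 343 low-gene T barcodes were kept there, so that median is set in part by the filter. Against high-gene T barcodes of up to 3000 genes the median of the list was −0.20.

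Genes of growth, metabolism and migration differed less, and their counts are read beside the 14.5% of all compared genes that were at least 2-fold lower. Glycolytic genes had 3 of 15 at least 2-fold lower, a share near that background, and a median of −0.50, with Gapdh at 869 and 1590 CPM, Pgk1 at 108 and 261 CPM and Ldha at 453 and 471 CPM. Nucleolar and translation genes had 1 of 18 at least 2-fold lower, a share under that background (median −0.39), with Ran, a nuclear transport factor, at 235 and 492 CPM, Ncl at 828 and 739 CPM and Myc at 21.7 and 24.4 CPM. Cytoskeletal and effector migration genes had 6 of 19 at least 2-fold lower and 0 higher (median −0.79), among them Lgals1 at 793 and 2433 CPM, Vim at 265 and 792 CPM, S100a4 at 1024 and 2711 CPM and Anxa2 at 181 and 469 CPM, which effector T cells express. Against high-gene T barcodes without Mki67 or Top2a and against those of up to 3000 genes, the glycolytic median was −0.19 and −0.13, each with 1 of 15 lower, the nucleolar one 0.16 and 0.22, and the cytoskeletal one −0.39 and −0.41.

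Other lists had few members at 2-fold. Interferon-stimulated genes had 0 of 16 at 2-fold in either direction (median 0.15), with Isg15 at 135 and 99.5 CPM. Their median depended on the comparison: it was −0.41 against high-gene T barcodes without Mki67 or Top2a, with 4 of 17 at least 2-fold lower, and −0.48 within CD4 barcodes, with 2 of 15 lower. Regulators of effector and memory fate had 1 of 12 higher and 1 lower (median −0.38), namely Cxcr3, a chemokine receptor of effector cells, at 95.5 and 45.0 CPM and Id3 at 9.49 and 25.3 CPM, while Eomes had 92.8 and 128 CPM and Tbx21 33.9 and 19.1 CPM. Regulatory T cell genes had 1 of 10 higher (Il10) and 1 lower (Capg), with Foxp3, which defines regulatory T cells, at 52.2 and 48.0 CPM. Of 12 genes of apoptosis and damage 1 was at least 2-fold higher (Bcl2, 39.3 and 6.91 CPM) and 2 at least 2-fold lower, among them Ddit4 (27.1 and 55.4 CPM), and Bax had 143 and 187 CPM (median of the list 0.37, and −0.071 within CD8 barcodes).

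Among the genes with the largest ratios outside the lists were Tnfsf8, which encodes the ligand of CD30 (86.7 and 4.63 CPM), Cish, a target of cytokine signalling through STAT5 (77.9 and 11.5 CPM), the clock repressor gene Nr1d2 (37.9 and 5.63 CPM), Dtx4 (37.3 and 3.73 CPM) and Esm1 (69.8 and 12.4 CPM). Trdc, the constant region of the δ chain of γδ T cells, had the highest ratio, at 55.6 and 1.27 CPM, but 95.1% of its UMIs lay in 10 barcodes and 4.08% of low-gene T barcodes had any. The lowest ratios were nearly all of chromosome and spindle genes. Hmmr, Esco2, Ska1, Bub1 and Stil had no UMI in the low-gene sum, which allows 2.03 CPM with a floor of 3 counts over the group, so that Hmmr (37.1 CPM in high-gene T barcodes) was at least 18.2-fold lower, Esco2 at least 12.3-fold, Ska1 at least 9.61-fold, Bub1 at least 9.48-fold and Stil at least 6.39-fold. The DNA repair gene Rdm1, also without a UMI, was at least 6.26-fold lower. Hist1h3c, Ncapg and Kif15, with 1 or 2 UMIs in the low-gene sum, had ratios of 0.0099, 0.025 and 0.024. The granzyme gene Gzme, the one effector gene of these, had 7.45 and 257 CPM.

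Detection per barcode was compared after thinning to 1000 UMIs. Klf2 was found in 34.7% (29.7 to 39.99) of low-gene and 9.05% of high-gene T barcodes, a difference of 25.6 points (20.2 to 31.2), where the macrophage and tumour barcodes had 16.8%. Il7r was found in 20.1% and 5.43% (difference 14.7 points, 10.3 to 19.5) and S1pr1 in 17.5% and 4.61% (12.9 points, 8.74 to 17.5), with 1.79% and 1.07% in the macrophage and tumour barcodes. Without thinning the shares were 59.8% and 47.7% for Klf2, 39.1% and 30.9% for Il7r and 38.5% and 26.3% for S1pr1, so these genes were found more often even in the shallower barcodes. Pdcd1 was found in 8.45% and 24.5% after thinning (−16.1 points, −20.4 to −11.3) and in 0% of the macrophage and tumour barcodes. Ccl5 was found in 68.2% and 70.4% (−2.17 points, −8.36 to 3.84), so at equal depth its higher level lay in the UMIs per barcode and not in the share of barcodes. At full depth the median was 36 Ccl5 UMIs per low-gene and 56 per high-gene T barcode, and 87 of 343 and 41 of 608 had none. The high-gene share of Klf2 lay below that of the macrophage and tumour barcodes, and the low-gene share above it. The source of the Klf2 UMIs in those barcodes was not tested.

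Single barcodes were then classed by 6 resting genes (among them Tcf7, Lef1, Ccr7, Il7r and S1pr1) and 6 activated genes (Gzmb, Gzmk, Pdcd1, Lag3, Icos, Tnfrsf4) at 1000 UMIs. Resting genes without activated ones were seen in 18.4% (14.4 to 22.9) of low-gene and 8.06% (6.02 to 10.5) of high-gene T barcodes, a difference of 10.3 points (5.84 to 15.1). Activated genes without resting ones were seen in 31.8% (26.9 to 37.0) and 56.7% (52.7 to 60.7), a difference of −25.0 points (−31.1 to −18.5). Both kinds were seen in 25.1% and 14.0%, and neither in 24.8% and 21.2%. A single thinning is a random draw, and the shares expected over all draws were 20.4% and 8.70% for resting only and 33.1% and 54.7% for activated only. At full depth 60.1% of low-gene T barcodes held both kinds and 7.87% resting genes alone, so that few low-gene T barcodes were without any of the 6 activated genes once all their UMIs were counted. Within the classes, resting genes alone differed by 4.77 points (−0.32 to 10.95) in CD8 and 9.55 points (−0.54 to 21.1) in CD4 barcodes, both with intervals that crossed 0. Activated genes alone differed by −13.4 points (−21.8 to −4.70) in CD8 and −36.8 points (−48.8 to −22.0) in CD4 barcodes. Both kinds together differed by 1.54 points (−3.41 to 7.57) in CD8 and 29.6 points (14.0 to 43.4) in CD4 barcodes, against 11.1 points (5.86 to 16.6) over all T barcodes.

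**Figure D3:**
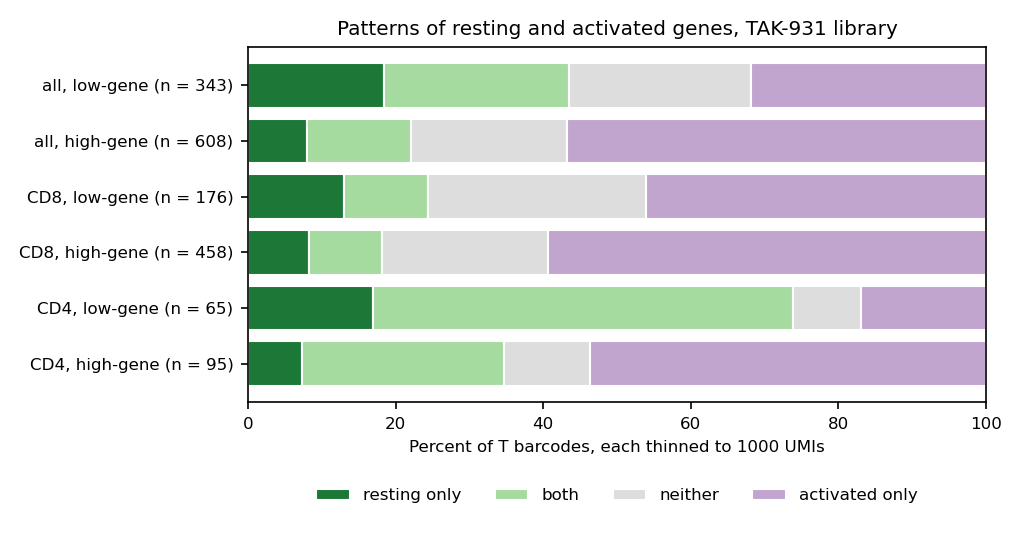
Bars show the percent of T barcodes of the TAK-931 library, each thinned to 1000 UMIs, that held resting genes only, both kinds, neither or activated genes only, for all barcodes and for those with CD8 or CD4 UMIs. Activated genes alone took 31.8% of all low-gene and 56.7% of all high-gene T barcodes, and in CD4 low-gene barcodes both kinds together took 56.9%.

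Levels were also followed across the range of detected genes. In TAK-931 T barcodes Klf2 stood at 333 CPM in the 27 barcodes with up to 1000 genes, 699.9 CPM in the 142 with over 1000 and up to 1500, 451 CPM in the 174 with up to 2000, 163 CPM in the 256 with up to 3000, 97.8 CPM in the 172 with up to 4000 and 76.9 CPM in the 180 above. S1pr1 ran 55.4, 415, 216, 65.6, 38.7 and 41.8 CPM over the same bands, and Gzma 111, 1728, 1096, 157, 97.0 and 64.7 CPM. The highest level of all 3 lay between 1000 and 1500 genes. Tcf7 ran level at the bottom, at 129, 113 and 106 CPM in the 3 low-gene bands. Pdcd1 stood at 36.9, 58.7 and 111 CPM in the 3 low-gene bands of the TAK-931 library and at 245, 246 and 316 CPM in the 3 high-gene bands. The median mitochondrial share was 7.34% in the lowest band and between 4.77% and 6.48% in the others. In the vehicle library, with 14, 21 and 8 barcodes in the 3 low-gene bands, the resting list summed to 3314, 2553 and 1354 CPM and was highest in the lowest band, as were Il7r (776, 306 and 72.5 CPM) and S1pr1 (388 and 281 CPM, then no UMI). Klf2 (423, 485 and 169 CPM) and Gzma (458 and 600.1 CPM, then no UMI) were highest in the second of them. Vehicle Pdcd1 stood at 35.3, 166 and 508 CPM in the low-gene bands and at 243, 218 and 168 CPM in the high-gene bands, which held 7, 3 and 4 barcodes.

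**Figure D4:**
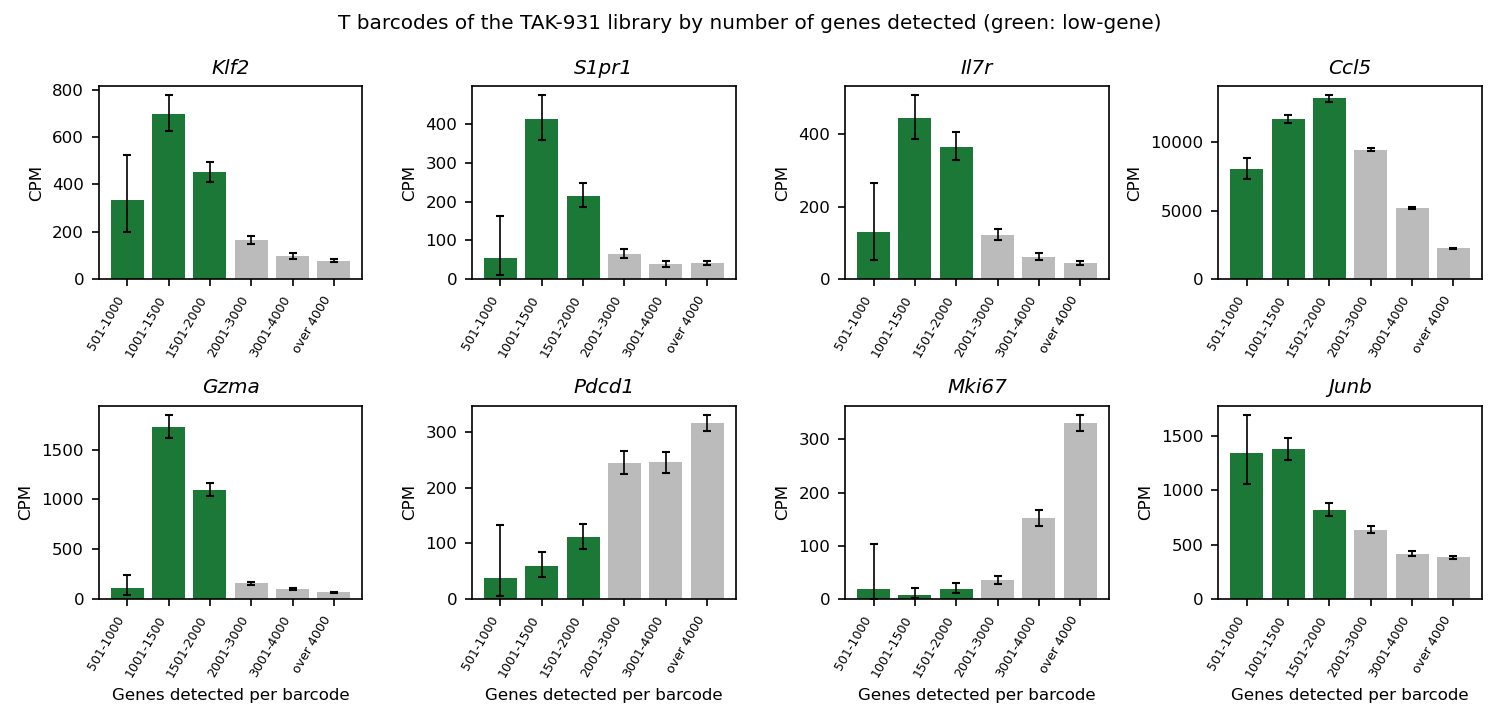
CPM of 8 genes in T barcodes of the TAK-931 library by bands of detected genes, low-gene bands in green and high-gene bands in grey, with 95% counting intervals as bars. Klf2, S1pr1, Il7r and Gzma are highest between 1000 and 1500 genes, and Pdcd1 and Mki67 are highest over 4000 genes.

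Just inside the limit, 66 T barcodes of the TAK-931 library lay within 200 genes of 2000, and just outside 60 did. Klf2 had 484 CPM inside and 229 CPM outside, Il7r 338 and 104 CPM, S1pr1 209 and 87.7 CPM, Gzma 1104 and 238 CPM, Pdcd1 149 and 196 CPM, Ccl5 14608 and 14495 CPM and Mki67 22.7 and 13.8 CPM. Ccl5 and Mki67 thus ran on across the limit, and Klf2, Il7r, S1pr1 and Gzma were higher on the inner side.

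Of the low-gene T barcodes of the TAK-931 library 176 (51.3%) had UMIs of Cd8a or Cd8b1 and none of Cd4, 65 (19.0%) the reverse, 4 both and 98 (28.6%) neither. In high-gene T barcodes these were 458 (75.3%), 95 (15.6%), 25 and 30 (4.93%). At equal depth CD8 barcodes were 34.7% (29.7 to 39.99) of low-gene and 53.6% (49.6 to 57.6) of high-gene T barcodes, and CD4 barcodes, whose gene is sparsely detected, 6.41% (4.06 to 9.55) and 3.95% (2.55 to 5.82). Cd8b1 stood at 334 and 669 CPM and Cd4 at 71.8 and 32.4 CPM, so the low-gene T barcodes leaned less to CD8.

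The comparison was therefore repeated within each class, where 272 of 6243 genes (4.36%) were at least 2-fold higher and 790 (12.7%) at least 2-fold lower in CD8 barcodes, and 150 of 3696 (4.06%) and 526 (14.2%) in CD4 barcodes. Resting genes had medians of 0.82 in CD8 (5 of 11 at least 2-fold higher) and 1.07 in CD4 (6 of 12 higher, 1 lower). Quiescence genes had medians of 1.18 (7 of 10 higher) and 1.03 (5 of 10 higher). Checkpoint genes had medians of −0.37 (3 of 11 lower) and −0.84 (4 of 10 lower).

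Single genes had unlike ratios in the classes. Klf2 had log2 ratios of 1.80 in CD8 (343 and 98.7 CPM) and 3.44 in CD4 (737 and 67.8 CPM), Il7r 1.57 and 2.32, and S1pr1 1.19 and 2.49. The level of S1pr1 was 77.8 CPM in low-gene CD8 and 569 CPM in low-gene CD4 barcodes. Gzma belonged to CD8, at 2105 and 104 CPM (4.34), with 26.9 and 9.13 CPM in CD4. Ccl5 was higher in low-gene CD8 barcodes (20314 and 5212 CPM) and lower in low-gene CD4 barcodes (1424 and 1859 CPM, −0.38). Foxp3 was at 165 and 260 CPM within CD4. Whether the ratios differ between CD8 and CD4 was not tested, there being 1 library.

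The vehicle library held 43 low-gene and 14 high-gene T barcodes (148051 and 228650 UMIs), so its values rest on few cells. Of 1988 genes compared 166 (8.35%) were at least 2-fold higher and 415 (20.9%) at least 2-fold lower. Resting genes again stood higher, 6 of 8 by at least 2-fold (median 2.25), and quiescence genes, 6 of 8 (median 1.39). Klf2 had 385 CPM (292 to 499) in low-gene and 43.7 CPM (21.0 to 80.4) in high-gene T barcodes, S1pr1 223 (153 to 313) and 30.6 CPM (12.3 to 63.1), and Il7r 331 (245 to 438) and 56.9 CPM (30.3 to 97.2). Among the high-gene T barcodes 1 barcode held 4 of 7 S1pr1 UMIs and 1 held 9 of 13 Il7r UMIs. Without the top barcode of each gene the high-gene levels were 13.7 and 18.0 CPM. Cell cycle genes were lower, 13 of 14 by at least 2-fold. Genes of dissociation stress were higher, 12 of 12 above a ratio of 1 and 6 by at least 2-fold (median 1.11). Dendritic cell genes were lower, 4 of 4 by at least 2-fold, with a summed level of 27.0 CPM in low-gene and 2213 CPM in high-gene T barcodes, where 1 of the 14 barcodes held 493 of the 506 dendritic UMIs. The part of both in the vehicle ratios was not tested.

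Other genes took another course there. Pdcd1 was at 236 CPM (165 to 329) in low-gene and 201 CPM (147 to 268) in high-gene T barcodes, and Nr4a1 at 74.3 and 96.2 CPM. Gzma was at 405 CPM (309 to 522) and 289 CPM (223 to 367), but 1 barcode carried most of each level, with 47 of 60 UMIs in the low-gene and 66 of 66 in the high-gene T barcodes. Without it low-gene T barcodes stood at 90.1 CPM (48.0 to 154), and the high-gene ones had no UMI. At 1000 UMIs 27.9% (15.3 to 43.7) of the low-gene T barcodes held resting genes only and 41.9% (27.0 to 57.9) activated genes only, against 1 and 9 of the 14 high-gene ones, with intervals of both differences that crossed 0.

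Low-gene T barcodes of the libraries were also set side by side. Of 1954 genes compared 123 (6.29%) were at least 2-fold higher and 15 (0.768%) at least 2-fold lower in the TAK-931 library, with a median log2 ratio of 0.098. Resting genes had 0 of 11 at 2-fold in either direction (median 0.29), T core genes 0 of 17 and interferon-stimulated genes 0 of 9. Gzma (1271 in TAK-931 and 405 CPM in vehicle), Ccl4 (439.8 and 40.5 CPM) and Ctsd (232 and 101 CPM) were the genes of the cytotoxic list that stood higher, 3 of 13. Ctsd encodes the lysosomal protease cathepsin D. Macrophage genes also stood higher, at 903 CPM in TAK-931 and 304 CPM in vehicle low-gene T barcodes, and the part of macrophage RNA in the Ctsd ratio was not tested. Without the barcode with most Gzma in each library, Gzma stood at 1143 and 90.1 CPM. CD8 barcodes were 51.3% (45.9 to 56.7) of the low-gene T barcodes in the TAK-931 library and 30.2% (17.2 to 46.1) in the vehicle library. At equal depth they were 34.7% and 14.0% (5.30 to 27.9). Neither Cd4 nor CD8 UMIs were held by 28.6% and 58.1% at full depth. The part of this makeup in the ratios was not tested. Of 5 checkpoint genes 1 was at least 2-fold lower in the TAK-931 library, Pdcd1 (90.8 and 236 CPM), and 1 at least 2-fold higher, Rgs16 (181 and 81.1 CPM, log2 1.16, 0.33 to 2.13). Trdc was at 55.6 and 196 CPM.

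RNA of other cell types was present in low-gene T barcodes and differed between the libraries. Of 13 macrophage genes outside the rule 13 had UMIs in the TAK-931 low-gene T barcodes and 6 in the vehicle ones, with summed levels of 903 CPM (855 to 953) and 304 CPM (222 to 407), against 18245 CPM in the whole TAK-931 library. Apoe was at 274 and 20.3 CPM, and the MHC class II gene H2-Eb1 at 133 CPM and 0 UMIs. The light chain gene of the tumour Iglc1 was at 368 and 790.3 CPM. Within the TAK-931 library macrophage genes had 903 CPM in low-gene and 721 CPM in high-gene T barcodes, plasmacytoma genes 745 and 451 CPM, and fibroblast genes 45.4 and 679 CPM. The share of RNA from other cells, taken from 38 markers of other lineages, was 4.17% in low-gene and 6.01% in high-gene T barcodes. Its part in the ratios was not tested beyond subtraction of that share, and Csf1r, Klrb1c and Ncr1 are at 0 by the rule.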

How the data were processed

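The authors dissociated each J558 allograft and prepared droplet libraries. The deposited matrices hold raw UMI counts per gene and barcode, not normalized. Cell Ranger 6.0.0 and the mouse build mm10 are named in the submitters' processing notes. The methods name a human build, and no coordinates are used here. The authors' later filter of over 2000 genes is not applied in the matrices. No doublet caller was used and doublets were not removed.

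Low-gene and high-gene T barcodes were found by the same rule below and above 2000 genes. The members and gene lists were chosen with earlier results of these data known. UMIs were summed per set and scaled to CPM, genes were compared at an expected count of 10 or more in each sum, and 0.5 was added to both counts where one was 0. A fold of 2 is the size named. Genes named were all of the resting, T cell receptor activation, cytotoxic and checkpoint lists, examples of the others, and the 12 highest and 12 lowest ratios with at least 30 UMIs in the sum where they stood higher, at a level not under that of barcodes that fail the T rule. Mitochondrial, ribosomal, haemoglobin, immunoglobulin, rule and unnamed genes were left out, and values of a few single genes are not reported here. For shares, each barcode was thinned to 1000 UMIs (seed 1), and none was shallower. Macrophage and tumour barcodes of the window gave the background share. Intervals are 95%: Poisson for CPM, Clopper-Pearson for shares, Newcombe for their differences and conditional binomial for ratios. With 1 library per group there is no test.

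Alternatives changed the gene, mitochondrial and marker limits, the scaling, free RNA, the gene minimum, the CD4 or CD8 class, the high-gene side and the thinning. Added after seeing the data were barcodes without UMIs of fibroblast, plasmacytoid or C1q genes, without UMIs of Trdc or NK genes, without the tenth or the 1 barcode with most Gzma, with under 2% Malat1, high-gene T barcodes of up to 3000 genes, a window without Trap1a, and shares expected over all thinnings. Steps were tested on simulated data. Versions were scipy 1.17.1, numpy 2.4.6 and pandas 2.3.3 under python 3.11.15, and matplotlib 3.10.9 for plots.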

Additional observations from a re-analysis of the deposited data

Results flagged for a closer look

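The median log2 ratio of low-gene over high-gene T barcodes had opposite signs in the libraries for 3 gene lists, and the difference between libraries was not tested. T cell receptor activation genes had a median of −0.20 for vehicle and 0.10 for TAK-931. Cytotoxic genes had 0.23 and −0.29. Genes of apoptosis and damage had −0.25 and 0.37, but the TAK-931 median fell below 0 in CD8 barcodes (−0.071), without Lyz2 or Trap1a UMIs (−0.042), against high-gene T barcodes without Mki67 or Top2a (−0.0032) and against those of up to 3000 genes (−0.013). The TAK-931 median of T cell receptor activation genes was −0.49 in CD4 barcodes. The vehicle side of each rests on 43 low-gene and 14 high-gene T barcodes.

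Barcodes outside the mitochondrial limit also held T cell transcripts. Of 499 TAK-931 barcodes with over 500 and up to 2000 genes and 15% or more mitochondrial UMIs, 42 (8.42%, 6.13 to 11.2) met the remaining T rule, against 0 of 77 in the vehicle library, where the interval reaches 4.68%. They were used in no comparison.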

How the results depend on the processing

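With 1 library per group no spread between mice is known, and depth limits the vehicle values most. No paired analysis was possible because each group is 1 library and no result comes from a test. Directions of resting, quiescence and checkpoint medians were the same under every alternative run. The resting median was 0.72 with the mean of barcode CPM. Against high-gene T barcodes without Mki67 or Top2a the medians were 0.40 (resting), 0.64 (quiescence), 0.16 (nucleolar, reversed) and 0.17 (cell cycle, reversed). The cell cycle median is set there in part by the filter on its own genes. In that comparison 200 of 7813 genes stood higher and 596 lower. Against high-gene T barcodes of up to 3000 genes the medians were 0.52, 0.62, 0.22 (nucleolar, reversed) and −0.20 (cell cycle), with 329 genes lower. T cell receptor activation moved to 0.70 with 2 UMIs of each marker group, 0.35 with barcode means, 0.40 at an expected count of 3, 0.49 in CD8, −0.49 in CD4 (the opposite sign), 0.52 without fibroblast, plasmacytoid or C1q UMIs and 0.64 without Trdc or NK UMIs. The cytotoxic median was −1.23 in CD4. Cell cycle had −2.33 without Lyz2 or Trap1a UMIs, −2.02 with the T rule on thinned counts, −1.86 with barcode means, −2.27 in CD4, −2.18 without fibroblast, plasmacytoid or C1q UMIs and −2.18 without Trdc or NK UMIs.

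Genes at least 2-fold higher numbered 152 with the T rule on thinned counts, 560 at an expected count of 3, 179 at 30, 150 in CD4, 199 without Trdc or NK UMIs and 182 under 2% Malat1. Lower genes numbered 727 without Lyz2 or Trap1a UMIs, 271 with the thinned rule, 1945 at 3, 566 at 30, 526 in CD4, 654 without fibroblast, plasmacytoid or C1q UMIs and 628 without Trdc or NK UMIs. Fewer barcodes or another minimum change how many genes are compared. The share of the window was 9.49% for vehicle without Trap1a barcodes, and for TAK-931 42.5% over 1000 genes and 18.2% without Lyz2 or Trap1a UMIs.

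Resting-only shares without thinning were 7.87% (low-gene) and 0.822% (high-gene). Activated-only was 37.0% in low-gene T barcodes at a mitochondrial limit of 10%, and in high-gene ones 43.8% at 500 UMIs, 26.6% without thinning and 50.8% with another seed. Also reversed were effector and memory regulators in CD8 (0.25), helper and innate-like genes without Lyz2 or Trap1a UMIs (−0.13), in CD8 (−0.54) and under 2% Malat1 (−0.092), Ccr7 with barcode means (−0.0095), in CD8 (−0.24) and against non-dividing high-gene T barcodes (−0.18), Ccl5 in CD4 (−0.38), and Gzmb without Trdc or NK UMIs (0.053) and against those of up to 3000 genes (0.032). The cause was not tested. The other 152 values of main results moved by less than counting error or 1.5 times.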
